A study of Mus musculus with 195 samples.

Results

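Tmed genes encode the p24 proteins, small membrane proteins that cycle between the endoplasmic reticulum and the Golgi in COPII- and COPI-coated vesicles. They act as cargo receptors, for example for proteins anchored to the membrane by glycosylphosphatidylinositol, and they work in mixed complexes built from the alpha, beta, gamma and delta subfamilies. Cells choose among polyadenylation sites at the end of a gene, so that an mRNA can carry a shorter or a longer 3′ untranslated region (3′ UTR) behind the same coding sequence.

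The 7 Tmed genes described here were Tmed10 of the delta subfamily, Tmed2 of the beta subfamily, Tmed9 and Tmed4 of the alpha subfamily, and Tmed3, Tmed5 and Tmed7 of the gamma subfamily. They were taken by name, 7 of the 19736 genes in the table of gene counts, and were chosen by a measured value, the share of Tmed10 molecules at its longer site in NSC and ESC-2i cells, which was already known from these data. The values of Tmed10 in those cells are therefore a description.

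BATSeq counts mRNA molecules per polyadenylation site in single mouse cells, each molecule being marked by a random barcode. ESC-2i are embryonic stem cells grown with 1 µM PD0325901, 3 µM CHIR99021 and LIF at 10 ng/ml, and ESC-FCS are embryonic stem cells grown in 10% FBS with LIF at the same concentration. NSC are neural progenitors derived from embryonic stem cells and kept in medium with N2 and B27. No inhibitor, LIF or FBS is listed for that medium, and the methods give N2 and B27 for the ESC-2i medium as well. All cells came from the 46C line, which carries GFP at the Sox1 locus and derives from E14tg2a, and were sorted as small cells that the labels call G1 and the methods G0/G1. The methods describe the NSC culture as grown out of sorted GFP+ cells with EGF and bFGF. Each population had 48 libraries of 1 cell in 2 library batches, and 48 further ESC-FCS control cells, 1 pool of 48 ESC-FCS cells and 2 pools of 48 ESC-2i cells were made apart from them.

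Of the single cells, 33 ESC-2i, 33 ESC-FCS and 41 NSC cells were in the table of genes and had at least 1000 molecules on genes, as had 42 of the control cells. These held 368363, 226684, 151877 and 223055 molecules on genes, with medians per cell of 10864, 6375, 3282 and 4723.5. The pools held between 179155 and 494799 molecules each. A list of 10 neural stem cell markers summed to 55.8 molecules per 10000 in NSC cells and to at most 4.18 in every other set, while 8 of 11 embryonic stem cell markers were at 0 in NSC cells. Of 4 astrocyte markers, Aldoc alone had molecules in NSC cells, at 15.5 per 10000 against 0.652 in ESC-2i cells. The 5 neuron markers summed to between 2.71 and 5.92 per 10000 in every set, but Map2 stood at 3.88 in NSC and 0 in ESC-2i cells, and Stmn2 at 0 in NSC and 2.52 in ESC-2i cells. Primitive endoderm and fibroblast markers had at most 2 molecules in any set. The part of these in the Tmed values was not tested. The libraries reuse 24 cell barcodes, each of which occurs in 8 libraries of different batches. Each population is 1 culture, so that no test between populations is possible. The 95% intervals given below cover counting error only.

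Tmed10 had 2 main ends, and their position relative to the stop codon is shown first because the 7 genes were chosen around them. The gene (ENSMUSG00000021248) lies on the minus strand of chromosome 12, from 85340614 to 85374847 in GRCm38. Its shorter end at 85342796 lay 632 nt behind the stop codon and 8 nt inside the annotated end of the coding transcript Tmed10-201, in that transcript's last exon (85342788 to 85343549). The longer end at 85340614 lay 2814 nt behind the stop codon, 2182 nt beyond the shorter one. In GENCODE M21 it is the end of Tmed10-202, a transcript classed as a retained intron, whose last exon from 85340614 to 85343549 runs through both ends. Each of the following stretches is read 5′ to 3′ on the strand of its gene from the M21 transcripts, and capitals mark the polyadenylation signal AATAAA or its common variant ATTAAA. The deposited positions were most often 3 nt before annotated ends on the plus strand and 1 nt before them on the minus strand. A printed end, and its distance from the signal, can be off by as much.
Tmed10 shorter end, chr12:85342796-85342825: ctcattttagaccATTAAAatgtttgtgct
Tmed10 longer end, chr12:85340614-85340643: actttcacaAATAAAagctagcagaaacca

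The shorter end of Tmed10 thus had the variant signal 11 nt before it, and the longer end had the main signal 15 nt before it. Over the 8042 sites with at least 10 molecules whose sequence could be read, 65.9% had AATAAA in the 40 nt before the end on the sense strand, 15.5% had ATTAAA without AATAAA, and 18.5% had neither. The stretch of 2182 nt that only the longer Tmed10 mRNA carries had a GC content of 42.8%, against a median of 42.9% over the last 2182 nt of 4746 coding genes with a final exon of at least that length. It held 1 ATTTA, a motif found in 92.4% of those windows with a median of 3, and no TGTANATA, which 37% of them held. Both motifs were searched on the sense strand and do not overlap each other.

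Among the other members, the ends of Tmed2, Tmed4 and Tmed9 are printed because they show a gene with 1 main end, a pair of ends with different signals, and a pair of neighbouring ends around 1 signal.
Tmed2 main end, chr5:124550464-124550493: atgcccaggttcagtaAATAAAcaattctt
Tmed4 more used end, chr11:6270715-6270744: ttcccaatgaAATAAAacatagttaactgt
Tmed4 longer end, chr11:6270377-6270406: ggaatatttATTAAAtttctttttctgact
Tmed9 more used end, chr13:55597631-55597660: tcaatgaatgtgggtttgttacattggttt
Tmed9 longer end, chr13:55597658-55597687: tttcccAATAAAaaagaaaaaagaaaaaaa

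Tmed2 used the end at 124550493 for 83 of its 89 molecules, 1288 nt behind the stop codon. This end held 36 of 37 molecules in ESC-2i cells, 27 of 32 in ESC-FCS cells and 20 of 20 in NSC cells, and 129 of 160 in the ESC-2i pools, 41 of 41 in the ESC-FCS pool and 53 of 54 in control cells. Tmed3 used the end at 89699208 for 16 of 17 molecules, 535 nt behind the stop codon. Tmed4 had 22 of 32 molecules at 6270715, which lies 346 nt inside the annotated end of Tmed4-201, and 9 at 6270377 close to that end. Its shorter end was the more used one in ESC-2i (10 of 15 molecules), ESC-FCS (4 of 6) and NSC cells (8 of 11) alike, and it held 52 of 67 in the ESC-2i pools and 5 of 6 in control cells. In the ESC-FCS pool both ends held 2 of 5. Tmed9 had 32 of 47 molecules at 55597660, where the 40 nt before the end held neither form of the signal and 10 of the 15 bases behind it were A, and 14 at 55597687, which is 27 nt further on. In the deposited annotation the end at 55597660 lies at -2 to 0 nt from a known end, and that at 55597687 at 16 to 35 nt. In GENCODE M21 the nearest annotated end of both is 55597687. The methods state that ends with more than the allowed share of A behind them were removed, and these ends passed that filter.

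Tmed7, on chromosome 18, was the other member with 2 ends far apart. Its shorter end lay 410 nt and its longer end 2507 nt behind the stop codon of Tmed7-203, and the longer end, as in Tmed10, is annotated only for a transcript classed as a retained intron, Tmed7-202. The longer end held 10 molecules in ESC-2i cells, 2 in ESC-FCS cells and 14 in NSC cells, and the shorter end held 3, 3 and 0. In the pools the longer end held 15 molecules in ESC-2i and 22 in ESC-FCS, against 5 and 0 at the shorter end, and in control cells 15 against 0. The shorter end had 6 molecules over the single cells, under the minimum of 20 set for a comparison of shares. Tmed5 had 15 molecules spread over 11 sites, none with more than 3.

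**Figure D1:**
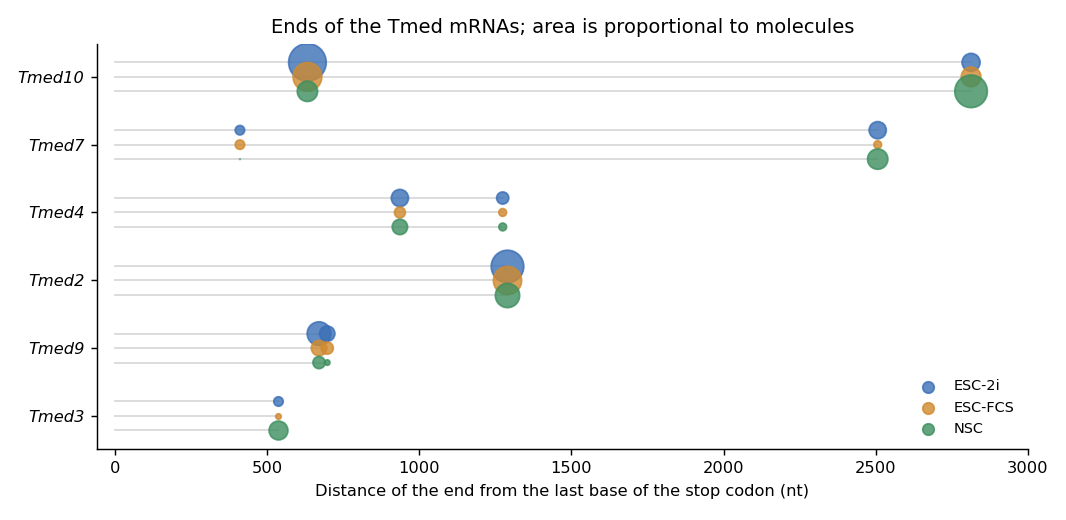
Ends of 6 Tmed mRNAs by distance from the last base of the stop codon (horizontal axis, nt), with a line for each population. The area of a circle is proportional to the molecules at that end in the 107 cells kept, for every end with at least 6 molecules, and Tmed5 had no such end. Tmed10 and Tmed7 have ends more than 2000 nt apart, and the green circle of NSC is the larger one at the longer end of both genes. Circles show counts, which follow the level of a gene as well as the share of an end. For Tmed7 the longer end already held more molecules than the shorter one in ESC-2i cells, 10 against 3.

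Tmed10 molecules ended mostly at the shorter site in embryonic stem cells and mostly at the longer site in NSC. The longer end held 11 of 59 molecules in ESC-2i cells, 18.6% (9.69 to 30.9). It held 13 of 41 in ESC-FCS cells, 31.7% (18.1 to 48.1), and 36 of 50 in NSC cells, 72.0% (57.5 to 83.8). The interval of NSC lay above those of both embryonic stem cell populations, which overlapped each other.

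The difference between NSC and ESC-2i was 53.4 percentage points (35.3 to 66.5, Newcombe interval), and that between NSC and ESC-FCS was 40.3 (19.8 to 56.4). The difference between ESC-FCS and ESC-2i was 13.1 points, with an interval from -3.82 to 30.3 that includes 0. A gene entered such a comparison where its 2 most used sites had at least 20 molecules each over all kept cells and at least 20 together in both populations, and only Tmed10 of the 7 members did so. Of 305 genes compared between NSC and ESC-2i, 18.4% differed by at least 20 points, 51 of them with the longer end higher in NSC and 5 with it lower. Tmed10 had the second largest difference of the 305, which is how it came to be chosen. For NSC against ESC-FCS, 12.5% of 288 genes passed 20 points and Tmed10 was the third highest, and for ESC-FCS against ESC-2i 11.2% of 437 genes did so and Tmed10 did not.

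**Figure D2:**
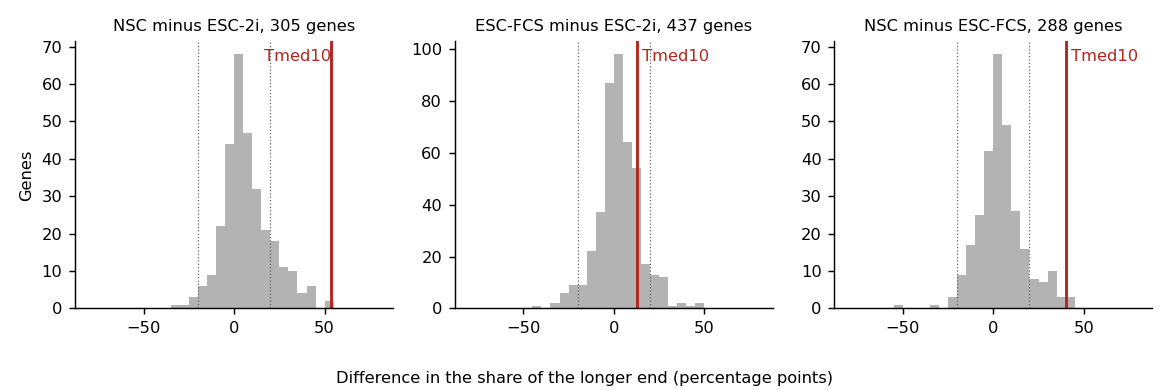
Differences between populations in the share of the longer end (horizontal axis, percentage points) for all genes with a pair of sites (vertical axis, number of genes), with dotted lines at 20 points and a red line at Tmed10. Tmed10 lies at 53.4, 13.1 and 40.3 points from the left panel to the right, at the upper edge of the distribution in both comparisons with NSC.

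Both library batches of a population gave the same order of NSC above ESC-2i. The longer end held 5 of 22 and 6 of 37 Tmed10 molecules in the batches of ESC-2i, and 24 of 31 and 12 of 19 in those of NSC. Batches were numbered within each population, so that pairing them by number is arbitrary. Paired in this way, the first batches of NSC and ESC-2i differed by 54.7 points and the second batches by 46.9 points. In ESC-FCS the batches had 8 of 30 and 5 of 11, and with the same pairing the difference from ESC-2i was 3.94 points for the first batches and 29.2 for the second. Between the batches of a population, 9.64% of genes in ESC-2i cells, 4.67% in ESC-FCS cells and 11.3% in NSC cells differed by at least 20 points at the same minimum.

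The libraries made apart had no part in the choice of Tmed10, although none of them is of NSC. Molecules within 12 nt of an end were counted there. In ESC-FCS control cells 10 of 33 Tmed10 molecules were at the longer end, 30.3% (15.6 to 48.7), a difference of -1.40 points (-21.4 to 19.5) from ESC-FCS cells of the main set. The ESC-FCS pool had 5 of 21, 23.8% (8.22 to 47.2). The ESC-2i pools had 13 of 73 and 5 of 87 molecules there, together 11.25% (6.81 to 17.2). All of these shares lay below the interval of NSC cells, and the NSC cells exceeded the ESC-2i pools by 60.8 points (45.9 to 72.0). The NSC share is a value on which Tmed10 was chosen, so only the ESC-2i side of this difference comes from libraries outside that choice.

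The control cells exceeded the ESC-2i pools by 19.1 points (4.87 to 36.6), and the ESC-FCS pool exceeded them by 12.6 points (-1.85 to 34.2), neither of which reached 20. In these comparisons 34.2% and 37.3% of genes passed 20 points, against 11.1% between the 2 ESC-2i pools. The comparison of serum with 2i medium thus had a value of the same sign in the main cells, the control cells and the pool, with an interval that excluded 0 only for the control cells. The values of the control cells and of the ESC-FCS pool share the ESC-2i pools as reference. The authors also describe that pool and those cells as made on the same day, so the values are not independent of each other. Control cells were libraries of 1 cell and the pools of 48, so that medium and library type cannot be told apart there. Control cells of the first batch had 4 of 21 and of the second 6 of 12 molecules at the longer end.

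**Figure D3:**
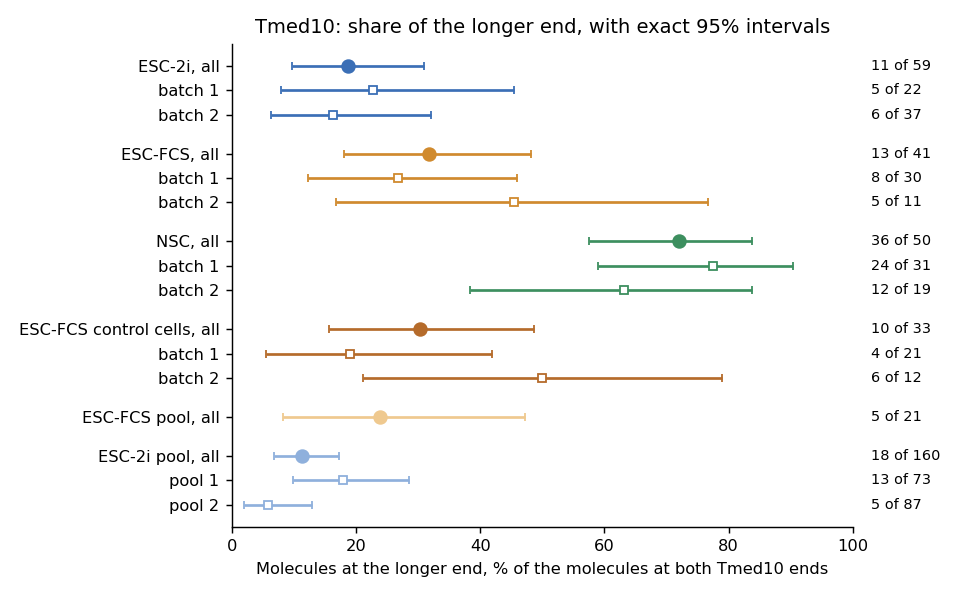
Share of Tmed10 molecules at the longer end (horizontal axis, percent) in every set of libraries (filled circles) and in its batches or pools (open squares), with exact Clopper-Pearson 95% intervals and the counts at the right. NSC is at 72.0% and the sets of embryonic stem cells lie between 11.25% and 31.7%.

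The 2 ends of Tmed10 were also set against all molecules on genes, which is a level and not a share. The longer end stood at 0.299 molecules per 10000 in ESC-2i cells, 0.573 in ESC-FCS cells and 2.37 in NSC cells. NSC over ESC-2i was 7.94-fold (3.95 to 17.3) and NSC over ESC-FCS 4.13-fold (2.14 to 8.49). The shorter end stood at 1.30, 1.24 and 0.922 per 10000, and NSC over ESC-2i was 0.707-fold (0.360 to 1.30), an interval that includes 1. The ESC-2i pools had 0.185 per 10000 at the longer end and 1.46 at the shorter end.

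Single cells held too few Tmed10 molecules to give a share per cell. Their counts divide the same molecules by cell and are a description, since cells of 1 culture are not replicates. In ESC-2i, 23 of 33 cells had more molecules at the shorter end and 4 had more at the longer end. In ESC-FCS these numbers were 15 and 8 of 33 cells, with 2 cells at equal counts. In NSC, 5 of 41 cells had more at the shorter end and 15 had more at the longer end, with 3 at equal counts, and in control cells 12 and 3 of 42. Cells with no molecule at either end numbered 6, 8, 18 and 24 in these sets. The highest count at the longer end in 1 cell was 7, in an NSC cell with 1 molecule at the shorter end. Without the cell with the most Tmed10 molecules in each population, the difference between NSC and ESC-2i was 54.2 points.

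Both ends occurred within the same cell. Of cells with at least 2 molecules at the ends together, 6 of 16 ESC-2i, 3 of 9 ESC-FCS, 8 of 12 NSC and 5 of 8 control cells held both. Of the rest, 10, 5, 1 and 2 cells held the shorter end alone.

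**Figure D4:**
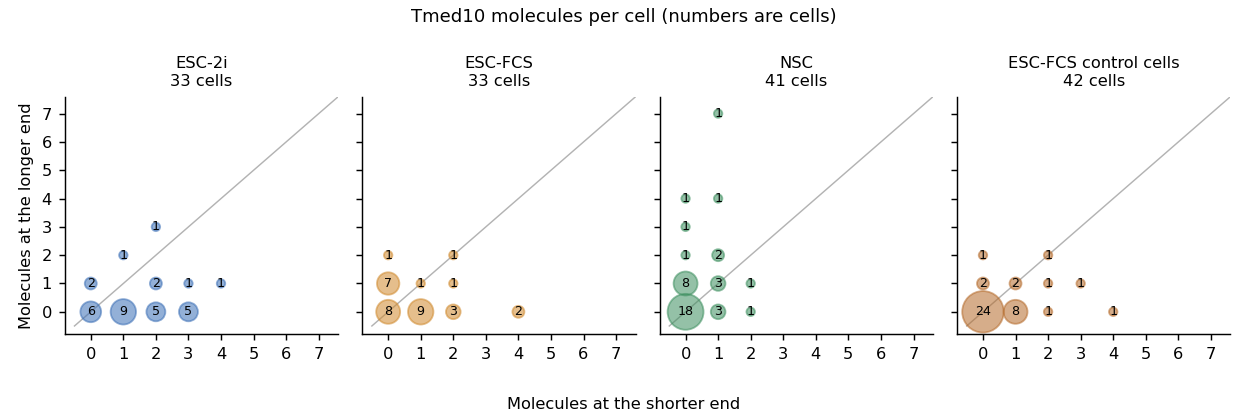
Molecules at the shorter end (horizontal axis) and at the longer end (vertical axis) of Tmed10 in each cell, with the number of cells printed on circles whose area is proportional to it and a line at equal counts. Most ESC-2i circles lie below the line, and 15 of the 23 NSC cells with a molecule lie above it.

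Over the 6 batches, the genes whose longer-end shares were nearest to those of Tmed10 were Bzw1, a translation regulator, Hnrnpa0, an RNA-binding protein, and Xpot, the nuclear exporter of tRNA. Nearness was the Euclidean distance over the 6 shares among 395 genes with at least 5 molecules at the pair in every batch, and it came to 22.8, 30.1 and 30.5 percentage points. In NSC the batches of Bzw1 had longer-end shares of 82.1% and 64.0%, those of Hnrnpa0 72.4% and 68.0%, and those of Xpot 64.3% and 59.1%. In ESC-2i the batches ranged from 15.6% to 41.7% over the 3 genes. A batch could enter with as few as 5 molecules, under the minimum of 20 set above for a population. These shares and distances thus carry wide counting error, for which no interval was computed. The ends of Xpot lay 2242 nt apart, those of Hnrnpa0 1033 nt and those of Bzw1 805 nt.

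The total level of the Tmed genes was higher in NSC than in embryonic stem cells. The 7 genes summed to 4.51 molecules per 10000 in ESC-2i (3.85 to 5.25), 4.72 in ESC-FCS (3.87 to 5.70) and 8.43 in NSC (7.03 to 10.0), from 166, 107 and 128 molecules. NSC over ESC-2i was 1.87-fold (1.47 to 2.37) and NSC over ESC-FCS 1.79-fold (1.37 to 2.33), while ESC-FCS over ESC-2i was 1.05-fold (0.814 to 1.34). Per cell, the lowest, median and highest summed level was 0.920, 4.57 and 7.82 in ESC-2i, 0, 4.06 and 37.1 in ESC-FCS, and 0, 7.58 and 23.3 in NSC, so that single cells of the 3 populations overlapped. Scaled to the ERCC spike-in molecules in place of molecules on genes, NSC over ESC-FCS turned to 0.705-fold, because ESC-FCS cells held 2.06 times and NSC cells 0.813 times the gene molecules per spike-in molecule of ESC-2i cells. The batches gave 4.70 and 4.33 in ESC-2i, 5.45 and 3.73 in ESC-FCS, and 9.40 and 7.35 in NSC. In the libraries made apart the sum was 4.92 per 10000 in the ESC-2i pools, 5.97 in the ESC-FCS pool and 5.51 in control cells. These values compare relative levels, since fewer cells of a kind and less RNA per cell cannot be told apart in pools.

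Levels of single members counted as different past 2-fold, where both populations together held at least 20 molecules. Of 5 members over that minimum, 1 passed in NSC against ESC-2i, where 43.6% of 4803 genes did. The 5 had a median of 1.78-fold, against 0.963-fold over all genes. In NSC against ESC-FCS 1 of 3 passed, where 39.3% of 3600 genes did, and in ESC-FCS against ESC-2i 0 of 4 passed, where 22.6% of 5007 genes did. Tmed7 was the member past 2-fold in both comparisons with NSC. The members left out held fewer molecules and are given as values.

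Tmed10, the only delta member, had the highest level of the 7 genes in each population of the main set. BATSeq counts 1 end per molecule, so that transcript length does not enter a level. The 3 levels were 1.76 per 10000 in ESC-2i (1.36 to 2.25), 1.94 in ESC-FCS (1.41 to 2.61) and 3.49 in NSC (2.61 to 4.56), and the first 2 did not differ beyond their intervals. NSC over ESC-2i was 1.98-fold (1.35 to 2.89), just inside 2-fold, and NSC over ESC-FCS 1.80-fold (1.18 to 2.75). Per cell, the counts had a lowest, median and highest value of 0, 2 and 5 in ESC-2i, 0, 1 and 5 in ESC-FCS, and 0, 1 and 8 in NSC. A molecule was seen in 81.8% of ESC-2i, 78.8% of ESC-FCS and 56.1% of NSC cells. Thinned to 2000 molecules a cell, leaving out 1 ESC-FCS and 8 NSC cells under that depth, the shares were 29.5%, 35.0% and 43.3%, in the opposite order. The pools and control cells stood between 1.23 and 1.66 per 10000.

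Tmed2, the only beta member, which binds to the COPI coat, had the second highest level of the 7 genes in ESC-2i and ESC-FCS cells and the same count as Tmed7 in NSC cells. It stood at 1.00 per 10000 in ESC-2i (0.707 to 1.38), 1.41 in ESC-FCS (0.966 to 1.99) and 1.32 in NSC (0.804 to 2.03), and these 3 intervals overlapped. The ESC-2i pools had 1.64, the ESC-FCS pool 2.29 and the control cells 2.42, where Tmed10 stood lower in the pool and the control cells of ESC-FCS. The control cells were above ESC-FCS cells of the main set by 1.71-fold (1.09 to 2.74).

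Tmed9, an alpha member, was lowest in NSC among the single cells of the main set. It stood at 0.760 per 10000 in ESC-2i (0.505 to 1.10), 0.573 in ESC-FCS (0.305 to 0.981) and 0.395 in NSC (0.145 to 0.860), and NSC over ESC-2i was 0.520-fold (0.176 to 1.28). The batches of ESC-2i differed, with 21 and 7 molecules or 1.20 and 0.361 per 10000. The libraries made apart held hardly any Tmed9: 8 molecules in the ESC-2i pools, 1 in the control cells and 0 in the ESC-FCS pool. A count of 0 in that pool has an upper limit of 0.206 per 10000 in its exact 95% interval, below the interval of ESC-FCS cells. Control cells over ESC-FCS cells were at 0.0782-fold (0.00184 to 0.520), a larger difference than this gene had between populations, although these sets held 14 molecules together, under the minimum of 20. The cause was not tested.

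Tmed4, the other alpha member, stood at 0.407 per 10000 in ESC-2i (0.228 to 0.672), 0.265 in ESC-FCS (0.0971 to 0.576) and 0.724 in NSC (0.362 to 1.30). The order was NSC, ESC-2i and ESC-FCS, with overlapping intervals between neighbours. In the libraries made apart it stood at 0.688 in the ESC-2i pools, 0.279 in the ESC-FCS pool and 0.269 in control cells. The ESC-FCS pool over the ESC-2i pools was 0.406-fold (0.128 to 0.995) and the control cells over those pools 0.391-fold (0.139 to 0.897). The ESC-FCS cells over ESC-2i cells of the main set were at 0.650-fold (0.207 to 1.77).

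Tmed7, a gamma member, had 14 molecules in ESC-2i cells, 5 in ESC-FCS cells and 20 in NSC cells. Its level was 0.380 per 10000 in ESC-2i (0.208 to 0.638), 0.221 in ESC-FCS (0.0716 to 0.515) and 1.32 in NSC (0.804 to 2.03). NSC over ESC-2i was 3.46-fold (1.66 to 7.42) and NSC over ESC-FCS 5.97-fold (2.17 to 20.4). The batches of NSC had 14 and 6 molecules, or 1.75 and 0.832 per 10000, both above the batches of the other populations, which had between 0.207 and 0.516.

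The libraries made apart placed Tmed7 differently. It stood at 1.45 per 10000 in the ESC-FCS pool, 0.852 in control cells and 0.339 in the ESC-2i pools. The ESC-FCS pool over the ESC-2i pools was 4.28-fold (2.46 to 7.39) and the control cells over them 2.51-fold (1.35 to 4.55), where 53.9% and 58.3% of genes passed 2-fold. The main ESC-FCS cells over ESC-2i cells were at 0.580-fold (0.164 to 1.71), and the control cells over the main ESC-FCS cells were at 3.86-fold (1.39 to 13.2), where 25.2% of genes passed 2-fold. The level of Tmed7 in NSC cells thus stood above that of the main ESC-FCS cells but not above that of the ESC-FCS pool.

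Tmed3 and Tmed5, the other gamma members, had the fewest molecules of the 7 genes over the 107 cells, 17 and 15. Tmed3 had 4 molecules in ESC-2i cells (0.109 per 10000), 1 in ESC-FCS cells (0.0441) and 12 in NSC cells (0.790), and NSC over ESC-2i was 7.28-fold (2.21 to 31.0). The NSC batches had 8 and 4 Tmed3 molecules, while 9 of 41 NSC cells held one. The ESC-FCS pool had 0.447 per 10000, the ESC-2i pools 0.257 and the control cells 0.134. Tmed5 had 3 molecules in ESC-2i cells (0.0814 per 10000), 6 in ESC-FCS cells (0.265) and 6 in NSC cells (0.395), and NSC over ESC-2i was 4.85-fold (1.04 to 30.0). Both genes had fewer than 20 molecules in each comparison of the main cells.

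**Figure D5:**
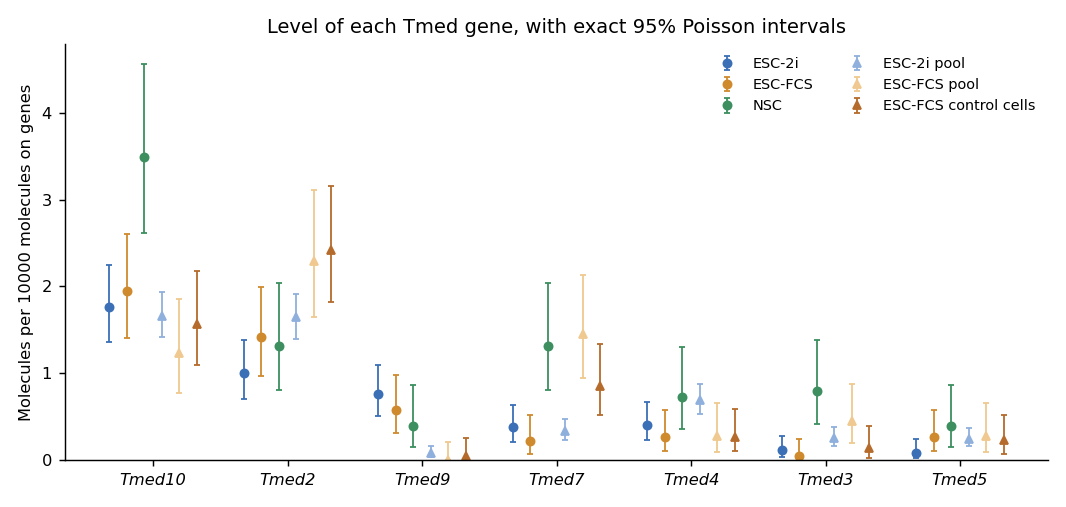
Level of each Tmed gene (vertical axis, molecules per 10000 molecules on genes) in the single cells of the main set (circles) and in the libraries made apart (triangles), with exact 95% Poisson intervals. NSC is highest for Tmed10, Tmed3, Tmed4 and Tmed5, Tmed9 is near 0 in every triangle, and Tmed7 is as high in the ESC-FCS pool as in NSC.

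The Tmed genes outside the 7 had few molecules in single cells. Tmed1 had 6 molecules in ESC-2i cells, 7 in ESC-FCS cells and 1 in NSC cells, and 94 in the ESC-2i pools, which is 0.965 per 10000 against 0.163 in ESC-2i cells. Tmed8 had 8, 3 and 2 molecules in the 3 populations. Tmed6 had 1 molecule in all, in an ESC-FCS cell, and Tmed11 had 0 in every set.

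The machinery that Tmed proteins travel with was described by a list of 51 genes of the early secretory pathway. In NSC against ESC-2i, 36 of the 51 were over the minimum, of which 8 were more than 2-fold higher and 4 more than 2-fold lower, with a median of 1.17-fold against 0.963-fold over all genes. Higher past 2-fold were 19.3% and lower 24.3% of all genes. The highest were Kdelr2, a receptor that returns proteins to the endoplasmic reticulum, at 3.81-fold (1.86 to 8.05), the small GTPase Arf5 at 3.36-fold (1.56 to 7.46) and the cargo receptor Surf4 at 2.80-fold (1.24 to 6.39). The lowest were the COPII coat subunit Sec31a at 0.316-fold (0.110 to 0.743), the Arf exchange factor Gbf1 at 0.418-fold (0.126 to 1.09) and Ergic2 at 0.473-fold (0.192 to 1.02). The ESC-2i pools stood above NSC cells for Arf5, at 2.83 against 1.19 per 10000, and for Surf4, at 2.06 against 0.988. The rises of Arf5 and Surf4 were thus not seen against the pools. Kdelr2 was lower in the pools than in NSC cells, at 1.01 against 1.45. Sec31a, Gbf1 and Ergic2 were higher in the pools, as in ESC-2i cells.

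In ESC-FCS against ESC-2i, 37 of the 51 genes were over the minimum, 1 was more than 2-fold higher and 10 were more than 2-fold lower, where 8.17% and 14.5% of all genes were. The median was 0.758-fold, against 0.956-fold over all genes. Sec16a, a scaffold of the sites where COPII vesicles form, was the one higher, at 2.28-fold (1.24 to 4.26). In the libraries made apart Sec16a was not higher in serum. It stood at 1.17 per 10000 in the ESC-FCS pool, 0.672 in control cells and 1.49 in the ESC-2i pools. The lowest were Gbf1 at 0.224-fold (0.0573 to 0.638), the COPII subunit Sec24b at 0.283-fold (0.0710 to 0.827) and the COPI subunit Copa at 0.332-fold (0.143 to 0.690). In the libraries made apart Gbf1 and Sec24b were again lower in ESC-FCS, but Copa was higher. Copa stood at 0.103 per 10000 in the ESC-2i pools, 0.837 in the ESC-FCS pool and 0.717 in control cells. The 7 Tmed genes summed to 1.05-fold in ESC-FCS over ESC-2i cells of the main set.

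In NSC against ESC-FCS, 29 of the 51 were over the minimum, 11 higher and 3 lower past 2-fold, where 20.9% and 18.4% of all genes were. The highest were Sec24b at 6.72-fold (2.21 to 27.3), Arf3 at 4.10-fold (2.54 to 6.85) and Arf4 at 3.93-fold (1.91 to 8.73). The lowest were the COPI subunit Arcn1 at 0.263-fold (0.0495 to 0.911), Sec16a at 0.267-fold (0.0804 to 0.699) and the SNARE protein Stx5a at 0.373-fold (0.0908 to 1.16). All of these named genes kept their direction against the ESC-FCS pool and control cells, Arf4 least. Arf4 stood at 1.91 per 10000 in NSC cells, 1.79 in the ESC-FCS pool and 1.43 in control cells.

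Few of these genes had a pair of sites to set beside that of Tmed10. Of 4 compared between NSC and ESC-2i, only Sar1a, the GTPase that starts the COPII coat, passed 20 points, as did 18.4% of all genes compared, with 13 of 21 molecules at the longer end in NSC and 11 of 44 in ESC-2i, a difference of 36.9 points. In ESC-FCS it had 13 of 20, 40.0 points above ESC-2i, while Tmed10 stood 13.1 points above it. Arf3 had 13 of 23 molecules at the longer end in ESC-FCS, 8 of 84 in ESC-2i and 3 of 66 in NSC, so that its longer end was 47.0 points higher in ESC-FCS than in ESC-2i and 52.0 points lower in NSC than in ESC-FCS. Sar1a and Arf3 were thus 2 of 3 genes of the list past 20 points in ESC-FCS against ESC-2i, where 11.2% of all genes were, and Arf3 was 1 of 3 in NSC against ESC-FCS, where 12.5% were. Copg1 and Arf1 differed by 1.52 and 7.14 points between NSC and ESC-2i. Comparisons that share a population are not independent of each other.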

How the data were processed

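Cells were sorted by the authors into single-cell lysis buffer and processed by BATSeq. According to the methods, reads with a terminal A stretch were aligned by the authors with GSNAP to GRCm38, reads that did not align uniquely or that could stem from priming inside A-rich sequence were removed, and similar molecular barcodes of a gene were merged. The deposited tables hold raw counts, for each cell and site, of molecules (distinct UMIs) and reads. The labels name HTSeq and R 3.0.2. The headers of the 2 final columns in the single-cell files are swapped, so their content decided how they were read.

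Molecules on genes leave out antisense sites within or upstream of a gene. The table of genes gave the same count as the summed sites for every member entry. Levels pool the kept cells and are given per 10000 molecules on genes, with exact Poisson intervals. Shares have Clopper-Pearson, differences of shares Newcombe, and folds exact conditional intervals, at 95% confidence. No count model was fitted, since each population is 1 culture. Genes and coordinates came from GENCODE M21, whose names matched all 7 members. Of the early secretory list, up to 3 genes per direction with the largest fold past 2-fold are named, and up to 3 that passed 20 points in site share, per comparison. The members, lists and thresholds were chosen with earlier results of these data known. Calculations used Python 3.11.15, pandas 2.3.3 and scipy 1.17.1, and were tested on simulated data. The alternatives tried are given in the closing section.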

Additional observations from a re-analysis of the deposited data

How the results depend on the processing

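No paired analysis was possible because each population is 1 culture with library batches of its own and no test between populations was run. Of 45 alternatives planned and 4 chosen after seeing the data, 41 gave a value within the 95% interval of the value reported, or within 1.5 times of the count reported. For the Tmed10 difference between NSC and ESC-2i, the alternatives ran from 46.9 to 63.8 points, the highest from reads in place of molecules. For the difference between ESC-FCS and ESC-2i they ran from 3.94 to 29.2 points, within the interval that includes 0. The count of 56 of 305 genes past 20 points (18.4%) moved to 124 (40.7%) at a threshold of 10 points and 23 (7.54%) at 30 points. With a minimum of 10 molecules it was 114 of 460 genes (24.8%), and with a minimum of 50 it was 19 of 130 (14.6%). With ERCC spike-in molecules as the scale, the summed Tmed level of ESC-FCS over ESC-2i became 2.16-fold, and that of NSC over ESC-FCS turned to 0.705-fold. That scale shifts all genes by 1.04 on the log2 scale in ESC-FCS against ESC-2i, by -0.30 in NSC against ESC-2i and by -1.34 in NSC against ESC-FCS, and median-ratio size factors shift NSC by -0.19 against ESC-2i. The count of 1 member past 2-fold in NSC against ESC-2i became 4 at 1.5-fold, with Tmed10 and Tmed4, higher in NSC, and Tmed9, lower in NSC, added. With no minimum on molecules it became 3, with Tmed3 and Tmed5 added. The share of all genes was not computed at these settings, so these counts have no background beside them. In the libraries made apart, the summed level of ESC-FCS over ESC-2i was 1.16-fold, and without Tmed10 the 6 others summed to 1.80-fold in NSC over ESC-2i. Depth limits single members, since 3 molecules in the kept NSC cells correspond to 0.198 per 10000.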
